A study of Caenorhabditis elegans with 24 samples.

Results

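The major sperm protein (msp) genes of *C. elegans* encode the small cytoskeletal protein that drives the crawling of nematode sperm. Released from sperm, the same protein signals to the ovary, where it promotes oocyte maturation and contraction of the gonadal sheath. The family is transcribed in germ cells that develop into sperm, and its copies lie in groups on chromosomes II and IV. It is therefore a set of near-identical genes that hypodermal and intestinal cells do not use. All genes whose WormBase identifier has the symbol msp- followed by a number in the WBcel235 annotation were taken, which gave 31 of the 46374 genes in the deposited tables. All 31 were annotated as protein-coding genes, 13 of them on chromosome II and 18 on chromosome IV.

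Chromatin association of BAF-1, which bridges DNA and proteins of the nuclear envelope, was measured by DNA adenine methyltransferase identification (DamID) in larvae at the L4 stage. The bacterial enzyme Dam marks adenines of nearby GATC sequences wherever its fusion partner contacts DNA, and GFP::Dam reports how open to Dam a site is in the same cells. A ratio is an average over all cells of a tissue that carry Dam, so contact in fewer cells and weaker contact in each cell cannot be told apart. The comparisons ask where BAF-1 and BAF-1(G12T), which carries the change of a human progeria syndrome, lie at the msp genes in the 2 tissues.

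The hypodermis BAF-1 group combined Dam::BAF-1 (strain BN1047) with GFP::Dam (BN561), both in wild-type animals. The hypodermis BAF-1(G12T) group combined Dam::BAF-1(G12T) (BN1050) with GFP::Dam (BN1048), both in baf-1(G12T) animals. The intestine groups were Dam::BAF-1 (BN1052) with GFP::Dam (BN1051) in wild-type animals, and Dam::BAF-1(G12T) (BN1054) with GFP::Dam (BN1053) in baf-1(G12T) animals. All animals carried a Dam transgene behind a heat-shock promoter, kept silent by a cassette that a tissue-specific FLP recombinase removes, and hatched larvae of all strains were kept at 20 °C, with collection after 48 h. Each group was 1 strain with 3 replicates of 4000 animals, and the labels do not say whether replicates were separate cultures, so p-values measure only the spread between these samples. Since the mutant fusion was always expressed in mutant animals, an effect of the fusion protein and one of the genotype cannot be told apart.

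There were 24 libraries and 12 columns of log2 ratios, 1 column for each replicate of each of the 4 groups. The ratios carry no counts, so the spread between replicates is the measure of precision used here. Read totals per library, which the study lists, were not used in the fits. Over all genes tested, replicates of a group correlated with r from 0.58 to 0.88 across genes, which are not independent replicates. In replicate 2 of intestine BAF-1 the most frequent ratio in the gene table, which a gene without reads takes, was 2.46 on the log2 scale as deposited. In the other 11 columns it was -1.62 to 0.02 as deposited. The study lists the Dam::BAF-1 library of this column with the fewest reads at GATC sites of the 24. A gene with few reads is drawn towards a high ratio there. No gene was called bound in that group without this column, so every gene call for intestine BAF-1 given here needs it. As a check of the tissues, 5 of 6 hypodermis markers had ratios below 0 in each hypodermis group by the test described next. The shares of all genes there were 24% and 26.3%. In each intestine group 4 of 7 intestine markers had ratios below 0, against 22.4% and 19.2% of all genes. The sixth hypodermis marker, the cuticle collagen col-19, was instead bound in both hypodermis groups, at 2.54 and 1.41. In the other tissue, 1 or 2 hypodermis markers and 1 intestine marker had ratios below 0 by that test. These ratios measure association and not transcription.

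Throughout, a value is a log2 ratio of fusion to GFP::Dam over the gene with 500 bp at each end, and 0 is the median of the genes tested in that column. In replicate 1 of hypodermis BAF-1 and of intestine BAF-1, and in replicates 2 and 3 of hypodermis BAF-1(G12T), that median is also the value of a gene without reads. A gene was called bound when its mean over 3 columns was above 0 at an adjusted p under 0.05 (limma, Benjamini-Hochberg over all genes tested). Of the 31 msp genes, 25 could be tested in hypodermis BAF-1, 28 in hypodermis BAF-1(G12T), 28 in intestine BAF-1 and 30 in intestine BAF-1(G12T). A total of 25 were tested in every group, and msp-81, which was at the value of genes without reads in 6 of 12 columns, was tested in none. Some values of other members given below are also that value for their column. Examples are -0.75 for msp-40 in replicate 1 of hypodermis BAF-1(G12T) and 0.00 for msp-49 in replicate 1 of intestine BAF-1. In replicate 2 of intestine BAF-1 it is 3.00 on the centred scale, as at msp-81. The next highest msp value in that column was 2.83, at msp-113.

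The 31 genes fell into 7 clusters when neighbours less than 100 kb apart were joined. Coordinates are of WBcel235. Clusters 1 to 3 lie in the centre of chromosome II. Cluster 1 (chrII:4785898-4933410) holds msp-3, msp-40, msp-33, msp-32, msp-31 and msp-152. Cluster 2 (chrII:5115102-5200180) holds msp-74, msp-45, msp-49 and msp-50, and cluster 3 (chrII:5797065-5810330) holds msp-63, msp-142 and msp-64. Clusters 4 and 5 lie on the left arm of chromosome IV. Cluster 4 (chrIV:5055631-5065061) holds msp-55, msp-57 and msp-53, and cluster 5 (chrIV:5260589-5316906) holds msp-19, msp-51, msp-113, msp-58, msp-59 and msp-65. Clusters 6 and 7 lie in the centre of chromosome IV. Cluster 6 (chrIV:9689015-9895014) holds msp-76, msp-79, msp-78, msp-81, msp-10, msp-56 and msp-77, and cluster 7 (chrIV:10095433-10143740) holds msp-36 and msp-38.

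The copies are so alike that their sequence bears on what DamID can measure. In the annotation 28 of the 31 have a single exon of 384 bp, and among these the coding identity of the 378 pairs ranged from 86.2% to 99.5%, with a median of 92.5% and no identical pair. The median identity was 97.7% among members of the left arm of IV and 91.9% among members of chromosome II. Members held 4 to 10 GATC sites each, with a median of 6, or 4.65 sites per kb against 2.85 per kb over windows of protein-coding genes. Of the 396 sequences of 50 bases that start at these GATC sites, 251 (63.4%) occurred once in the genome, against 95.3% for protein-coding genes. Inside the annotated gene bodies it was 66 of 182. Every member had at least 1 such sequence that occurred once. The handling of reads with several matches is not stated, so reads from 1 copy may have been credited to another.

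A single end shows the extent of the sharing, because the same 50 bases from a GATC site (capitals) occur in 8 of the 9 members on the left arm of IV, and 11 times in the genome.
shared end: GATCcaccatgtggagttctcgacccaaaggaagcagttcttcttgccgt
The members that carry it are msp-113, msp-19, msp-51, msp-53, msp-55, msp-57, msp-59 and msp-65. They include members with some of the highest ratios described here, and msp-65, which was not bound in any group.

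The pair msp-113 and msp-65 carries much of what follows, because they are the most alike of all pairs and differ in their ratios. Their coding sequences differ at 2 positions, A81G and A111G (msp-113 first, counted from the A of the start codon). Coding bases 21 to 130 of both genes are shown with GATC sites and the 2 differing bases in capitals, from chrIV:5297982-5298091 and chrIV:5316543-5316652, both on the plus strand of WBcel235.
msp-113: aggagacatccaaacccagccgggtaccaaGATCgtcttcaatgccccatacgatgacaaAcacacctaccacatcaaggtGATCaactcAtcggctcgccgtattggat
msp-65: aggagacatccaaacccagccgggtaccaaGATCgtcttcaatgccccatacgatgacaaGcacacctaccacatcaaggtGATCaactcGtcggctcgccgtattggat
Both have GATC at coding positions 51, 102 and 169, so Dam has the same sites in the 2 gene bodies.

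In the upstream stretch compared, the pair is alike in the part nearer the start and diverges farther out. Bases closer to the start codon than this stretch were not compared. The stretch from 150 to 51 bases before the start codon is shown for each, from chrIV:5297812-5297911 and chrIV:5316373-5316472 on the plus strand, with GATC and GATAA in capitals.
msp-113: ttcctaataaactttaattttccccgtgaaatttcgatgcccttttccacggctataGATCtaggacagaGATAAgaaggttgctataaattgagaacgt
msp-65: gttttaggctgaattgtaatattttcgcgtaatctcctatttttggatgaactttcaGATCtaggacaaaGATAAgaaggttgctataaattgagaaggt
Both hold GATC 93 bases and GATAA 80 bases before the start. They have the same base at 54 of the 100 positions. For msp-59 and msp-65 it is 89 of 100, and their ratios differed too, with msp-59 higher in 12 of 12 columns by 1.08 to 5.15. GATAA holds the letters that GATA factors such as ELT-1 are known to read. It was searched on both strands in the 250 bases before the start of every gene. It was found for 26 of 31 msp genes (83.9%) and for 52.2% of 19858 protein-coding genes, where a match is a description of the letters and not a binding site. The start used is that of the annotated gene, which for other genes need not be the start codon. Upstream stretches of msp genes can be alike, as for msp-59 and msp-65, so the 26 matches are not independent. The search covered GATAA and its reverse complement TTATC, with no overlap with the GATC sites.

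BAF-1 was called at 6 of the 25 msp genes tested in hypodermis, against 20.5% of all genes tested, and at 8 of 28 in intestine, against 25.9%. BAF-1(G12T) was called at 6 of 28 in hypodermis, against 24.6%, and at 7 of 30 in intestine, against 21.9%. As a family, the msp genes were called about as often as other genes. Those called were on the left arm of IV with 2 exceptions. Of the 9 members there, 5 were bound by BAF-1 and 5 by BAF-1(G12T) in hypodermis, and 8 and 7 in intestine. Of the members in chromosome centres, 1 of 16 (msp-74) and 1 of 19 (msp-142) were bound in hypodermis, and 0 of 19 and 0 of 21 in intestine. In limma's test at an unadjusted p under 0.05, over all members, 7 and 6 had ratios above 0 in hypodermis and 8 and 7 in intestine. In either direction 9 of 25 members passed in hypodermis BAF-1, against 16123 of 30374 genes. For hypodermis BAF-1(G12T) it was 9 of 28 against 19606 of 33800. In intestine it was 18 of 28 against 21403 of 36850 for BAF-1 and 15 of 30 against 17419 of 33367 for BAF-1(G12T).

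Calls below 0, where the fusion gave relatively less signal than GFP::Dam, were all in chromosome centres. They numbered 1 of 25 members against 24% of all genes for hypodermis BAF-1, 3 of 28 against 26.3% for hypodermis BAF-1(G12T), 8 of 28 against 22.4% for intestine BAF-1 and 6 of 30 against 19.2% for intestine BAF-1(G12T). The median ratio over tested members was 0.39 ± 0.66 and 0.03 ± 0.61 for BAF-1, then BAF-1(G12T), in hypodermis, and -0.71 ± 0.76 and -0.65 ± 0.19 in intestine (mean of the column medians ± SD, n = 3). The medians of all genes are 0 by construction.

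**Figure D1:**
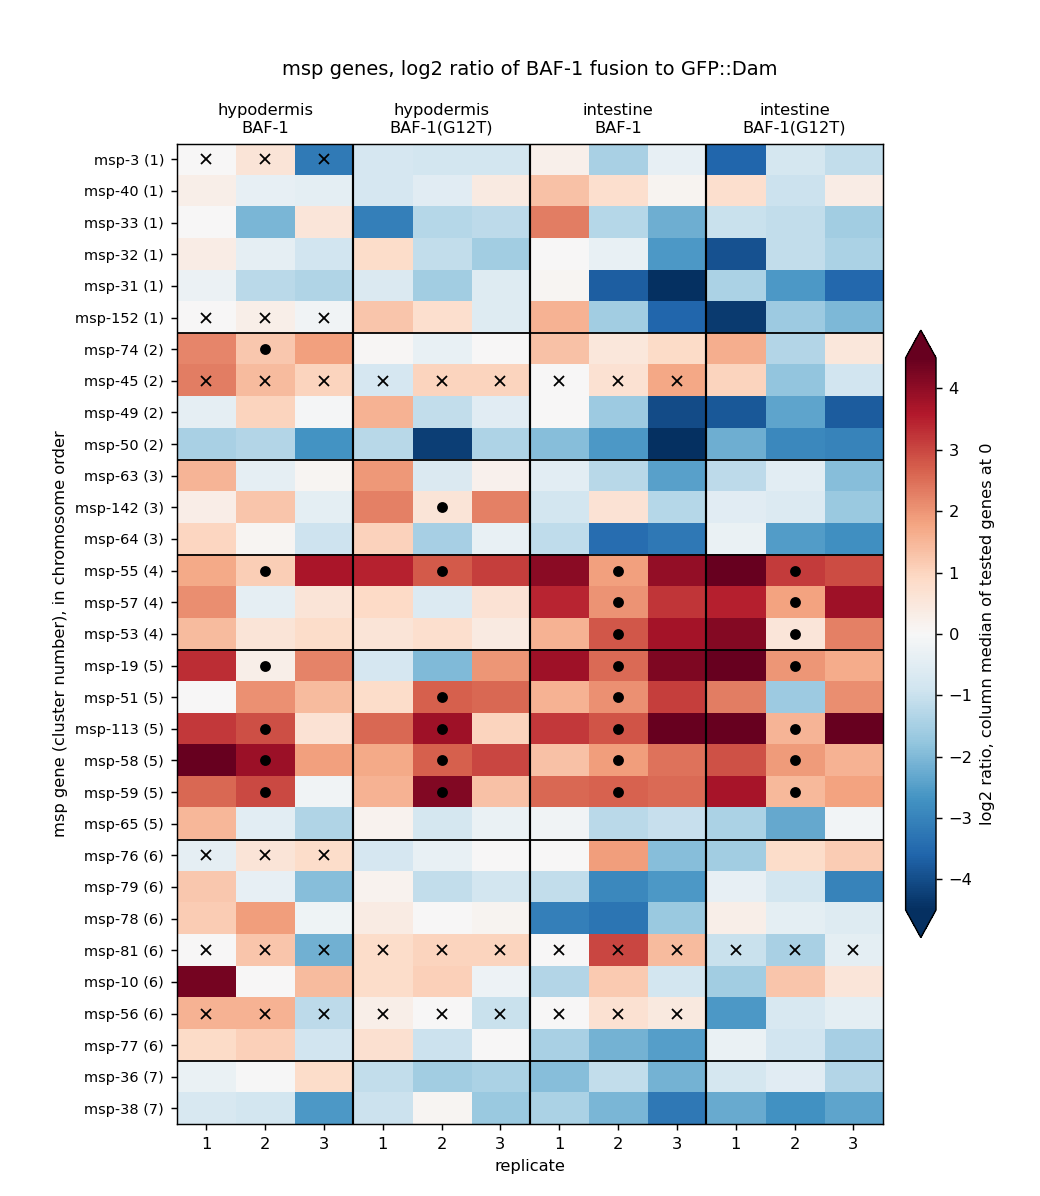
Log2 ratio of fusion to GFP::Dam for the 31 msp genes (rows in chromosome order, cluster number in brackets) in the 12 columns, with replicates 1 to 3 of each group. Circles mark genes bound in a group and crosses mark genes that were not tested there; colours saturate at the ends of the bar. The rows of clusters 4 and 5 are red in most columns, except msp-65, and most other rows are pale or blue.

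The split between the left arm of IV and the chromosome centres was seen in every column. The mean over the 9 left arm members was 2.28, 1.43 and 1.07 in replicates 1 to 3 of hypodermis BAF-1, where that over the centre members was 0.62, -0.03 and -0.48. For hypodermis BAF-1(G12T) the left arm members averaged 1.22, 1.50 and 1.53, and the centre members 0.09, -0.77 and -0.43. The left arm mean was higher in each of these columns, by 1.13 at the least, although msp-65 on the left arm lay among the centre members. In intestine BAF-1 the left arm members averaged 2.38, 1.93 and 3.06 and the centre members -0.41, -1.25 and -2.28. In intestine BAF-1(G12T) the values were 3.51, 0.94 and 2.30 on the left arm and -1.34, -1.15 and -1.44 in the centres. The left arm members were thus higher in 12 of 12 columns, and the widest gap was 5.34, in replicate 3 of intestine BAF-1.

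Counts of calls moved more than these levels when 1 column was left out. Without replicate 2 of intestine BAF-1, 0 members were bound, as were 0 of all 36850 genes, although 8 of the 9 left arm members had means above 0 with or without that column. In 2 kb bins, which could be fitted without that column too, 7 of 31 members still lay in a bound bin, among 5757 bound bins of 42169. Without replicate 3 of the same group 5 members were bound, while calls over all genes fell from 9541 to 3141. Without replicate 3 of hypodermis BAF-1 there were 3, while those over all genes fell from 6236 to 4095. Without replicate 1 of intestine BAF-1(G12T) there were also 3, while those over all genes fell from 7306 to 5858. In these 3 counts above 0, all members bound were on the left arm. With no filter on tested genes, 0 members were bound in hypodermis BAF-1(G12T), where calls over all genes fell from 8302 to 423 and the ratio of msp-55, for example, was 3.36. Counting by chromosome part or in bins with a column left out was chosen after the data had been seen.

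In cluster 4 on the left arm of IV, all 3 members were bound in both intestine groups. The member with the highest mean was msp-55. Its ratios in replicates 1 to 3 were 1.72, 1.12 and 3.66 for BAF-1 and 3.47, 2.77 and 3.10 for BAF-1(G12T) in hypodermis. In intestine they were 4.06, 1.84 and 3.97 for BAF-1 and 6.43, 3.14 and 2.93 for BAF-1(G12T). All 12 ratios of msp-55 were above 1, and it was bound in all 4 groups (adjusted p from 0.000872 to 0.0142, limma). The hypodermis BAF-1 call was lost without replicate 3 (1.42, adjusted p = 0.161) and the intestine BAF-1 call without replicate 2 (0.0882). It is also the first member of its cluster, on the minus strand.

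The lowest mean in cluster 4 was that of msp-53, which lies 1.72 kb from msp-57. Its ratios were 1.42, 0.58 and 0.83 for BAF-1 and 0.57, 0.74 and 0.42 for BAF-1(G12T) in hypodermis. They were 1.58, 2.78 and 3.73 for BAF-1 and 4.13, 0.53 and 2.26 for BAF-1(G12T) in intestine. Every value was above 0, but only the intestine means of 2.70 ± 1.08 and 2.31 ± 1.80 (SD, n = 3) passed the test (adjusted p = 0.00872 and 0.0320, limma). The BAF-1 call was lost without replicate 2 or 3 (0.106 and 0.0722) and the BAF-1(G12T) call without replicate 1 (0.173). The ratios of the remaining member, msp-57, were 2.08, -0.39 and 0.57 for BAF-1 and 0.88, -0.60 and 0.64 for BAF-1(G12T) in hypodermis. In intestine its ratios were 3.44, 2.02 and 3.20 for BAF-1 and 3.50, 1.80 and 3.81 for BAF-1(G12T), and both groups were bound (adjusted p = 0.00689 and 0.00749, limma). The intestine BAF-1 call of msp-57 was lost without replicate 2 (adjusted p = 0.0882, limma). All 6 intestine values of msp-57 lay above 1.5 and its hypodermis values spanned 0.

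Cluster 5 held both the widest association and a member without it. The highest mean was that of msp-113, with ratios of 3.17, 2.91 and 0.64 for BAF-1 and 2.57, 3.81 and 1.00 for BAF-1(G12T) in hypodermis. In intestine they were 3.17, 2.83 and 5.35 for BAF-1 and 5.19, 1.53 and 4.73 for BAF-1(G12T). All 12 values were above 0 and msp-113 was bound in each group (adjusted p from 0.00528 to 0.0129, limma), with the BAF-1 calls lost without replicate 2 in hypodermis (0.0748) and in intestine (0.0882). The lowest mean was that of msp-65, the last member of the cluster. Its ratios were 1.50, -0.46 and -1.34 for BAF-1 and 0.15, -0.79 and -0.30 for BAF-1(G12T) in hypodermis, and -0.15, -1.20 and -1.04 for BAF-1 and -1.43, -2.31 and -0.14 for BAF-1(G12T) in intestine. Its mean was below 0 in all 4 groups and passed the test in none (adjusted p from 0.131 to 0.910, limma). So the pair whose coding sequences differ at only 2 of 384 positions differed in ratio in the same direction in 12 of 12 columns, with msp-113 higher by 1.30 to 6.62. Only some of the ends in either window occur once in the genome, 4 of 12 for msp-113 and 4 of 10 for msp-65. Inside the gene bodies it is 0 of 6 and 2 of 6. The windows also overlap those of different genes, ZK354.6 for msp-113 and ZK354.2 among others for msp-65. The part of shared ends and of flanking sequence in these values was not tested.

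The other members of cluster 5 were bound in 2 to 4 groups, and they are named here after their values were seen. Both msp-58 and msp-59 were bound in every group with all columns. With 1 column left out, msp-58 lost its intestine BAF-1 call without replicate 2 or 3 (adjusted p = 0.185 and 0.178, limma) and its intestine BAF-1(G12T) call without replicate 1 or 3 (0.0839 and 0.0592). The calls of msp-59 were lost without replicate 1 or 2 in hypodermis BAF-1 (0.114 and 0.280), replicate 2 in hypodermis BAF-1(G12T) (0.0964), replicate 2 in intestine BAF-1 (0.104) and replicate 1 in intestine BAF-1(G12T) (0.0998). The ratios of msp-58, an annotated gene of 234 bp, averaged 3.48 ± 1.50 and 2.47 ± 0.68 for BAF-1, then BAF-1(G12T), in hypodermis and 1.89 ± 0.57 and 2.11 ± 0.67 in intestine (SD, n = 3). For msp-59 the means were 1.79 ± 1.71 and 2.35 ± 1.58 in hypodermis and 2.59 ± 0.05 and 2.33 ± 1.22 in intestine. The gene at the left end, msp-19, was bound by BAF-1 in both tissues, at 1.94 ± 1.55 and 3.52 ± 0.86, and by BAF-1(G12T) in intestine alone, at 2.86 ± 1.78. Its BAF-1 calls were lost without replicate 1 or 3 in hypodermis (adjusted p = 0.118 and 0.131, limma) and replicate 2 in intestine (0.0882). Its BAF-1(G12T) call in intestine was lost without replicate 1 (0.0718). In hypodermis BAF-1(G12T) the 3 values of msp-19 were -0.75, -2.0 and 2.0, of which the first is the value of a gene without reads. The remaining member, msp-51, was bound by BAF-1(G12T) in hypodermis (2.04 ± 1.05) and by BAF-1 in intestine (2.25 ± 0.79). Its intestine call was lost without replicate 2 or 3 (adjusted p = 0.126 and 0.126, limma).

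The end of cluster 5 was also the end of a stretch of bound chromatin. The 2 kb bin that holds msp-59 (chrIV:5312001-5314000) had mean ratios of 2.03 ± 1.27 and 2.09 ± 1.40 for BAF-1, then BAF-1(G12T), in hypodermis and 2.44 ± 0.38 and 2.58 ± 0.76 in intestine, and it was bound in all 4 groups. Without replicate 2 the call of this bin was kept in intestine BAF-1 (adjusted p = 0.0414, limma) and lost in hypodermis BAF-1 (0.182) and BAF-1(G12T) (0.103). The next bin was bound in the 2 hypodermis groups, at 2.05 ± 1.22 and 1.64 ± 1.09, and not in intestine, at 0.74 ± 0.21 and 1.02 ± 1.31. The bin that holds msp-65 (chrIV:5316001-5318000) was at -0.07 ± 1.43, -0.21 ± 0.48, -0.48 ± 0.33 and -1.17 ± 1.17, in the same order of groups, and was not bound in any. The fall from a bound to an unbound bin thus took place between the bins of msp-59 and msp-65, whose annotated bodies are 3.41 kb apart. The 3 bins beyond msp-65 were not bound in any group either, with means from -2.46 to 0.59. Farther out, bound bins returned in intestine BAF-1, at chrIV:5328001-5330000 (1.54 ± 0.13) and chrIV:5330001-5332000 (1.87 ± 1.63). These bins were not called in the other groups, and were not tested in some of them.

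**Figure D2:**
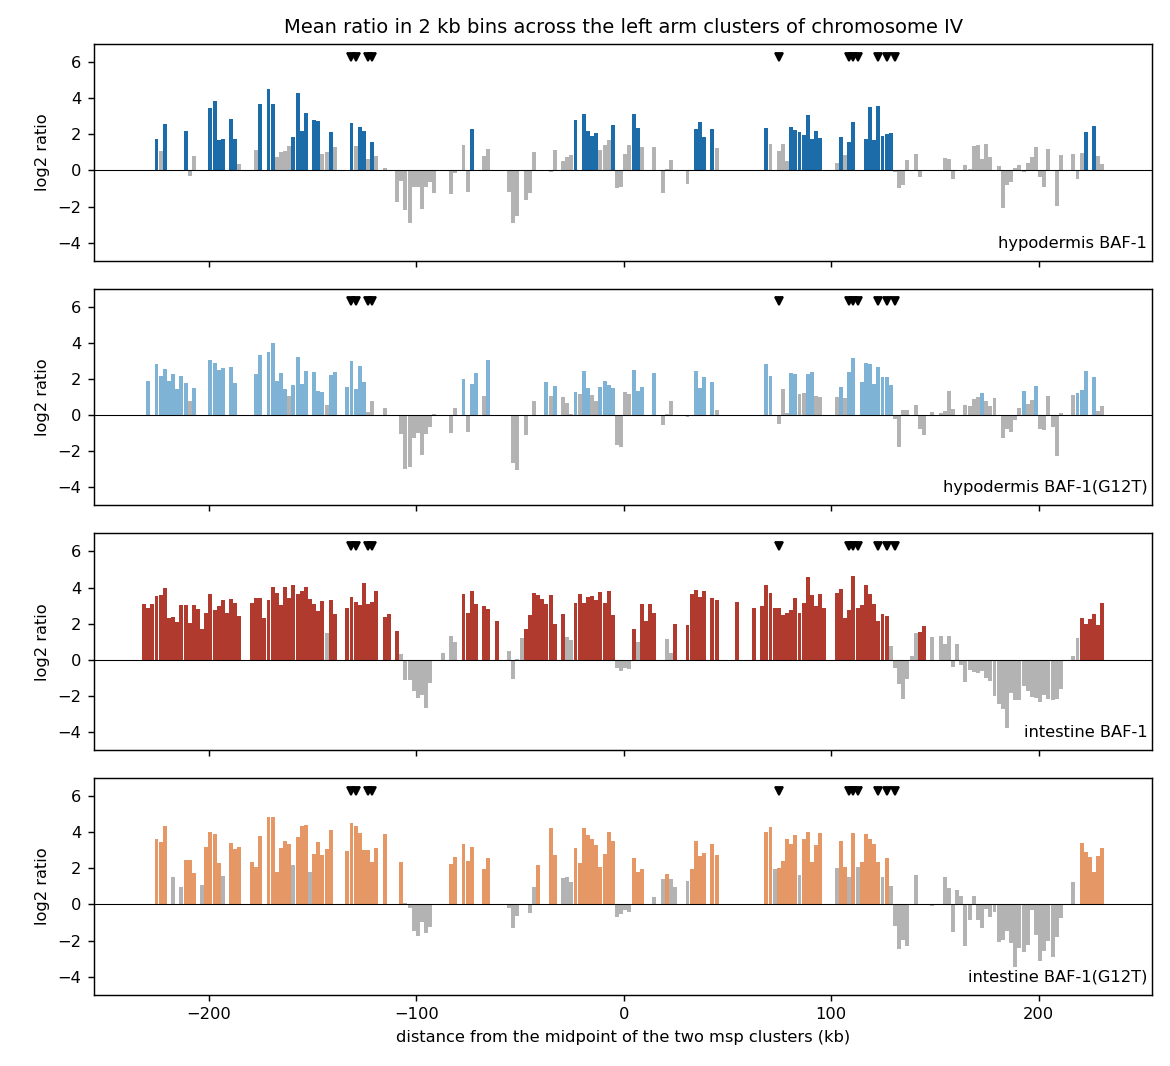
Mean log2 ratio over 3 replicates in tested 2 kb bins across clusters 4 and 5 on the left arm of chromosome IV, against the distance in kb from the midpoint of the 2 clusters, 1 panel for each group. Coloured bars are bound bins, grey bars are tested bins that were not bound, and triangles mark bins that hold an msp gene. Most members sit within long runs of coloured bars, and msp-65, the rightmost triangle, sits where the run ends.

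Both left arm clusters lay in a neighbourhood of associated genes. Of the protein-coding genes within 100 kb of clusters 4 and 5, 34 of 88 tested were bound in hypodermis BAF-1 (38.6%) and 41 of 92 in hypodermis BAF-1(G12T) (44.6%). In intestine, 58 of 98 (59.2%) and 51 of 98 (52.0%) were bound. These shares were above those of the whole left arm of IV, where 32.4% and 36.3% of protein-coding genes were bound in hypodermis and 21.8% and 20.2% in intestine. The median of the left arm members minus that of their neighbours was 0.22 ± 0.63, 0.43 ± 0.71, 0.46 ± 0.47 and 0.41 ± 1.19 (SD, n = 3) in the 4 groups, in the order used above. These differences lay within the spread of the replicates, but the 2 clusters differed. In cluster 5 the members were above their neighbours in all 12 columns, by 1.07 ± 0.83, 1.05 ± 0.66, 1.2 ± 0.19 and 0.90 ± 0.93. In cluster 4 the median of the members was below that of their neighbours in hypodermis, at -0.47 ± 0.57 and -0.94 ± 0.30. In intestine the difference was 0.31 ± 0.64 and 0.49 ± 1.41. Without replicate 2 of intestine BAF-1, 0 of its neighbours were bound, since no gene was.

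**Figure D3:**
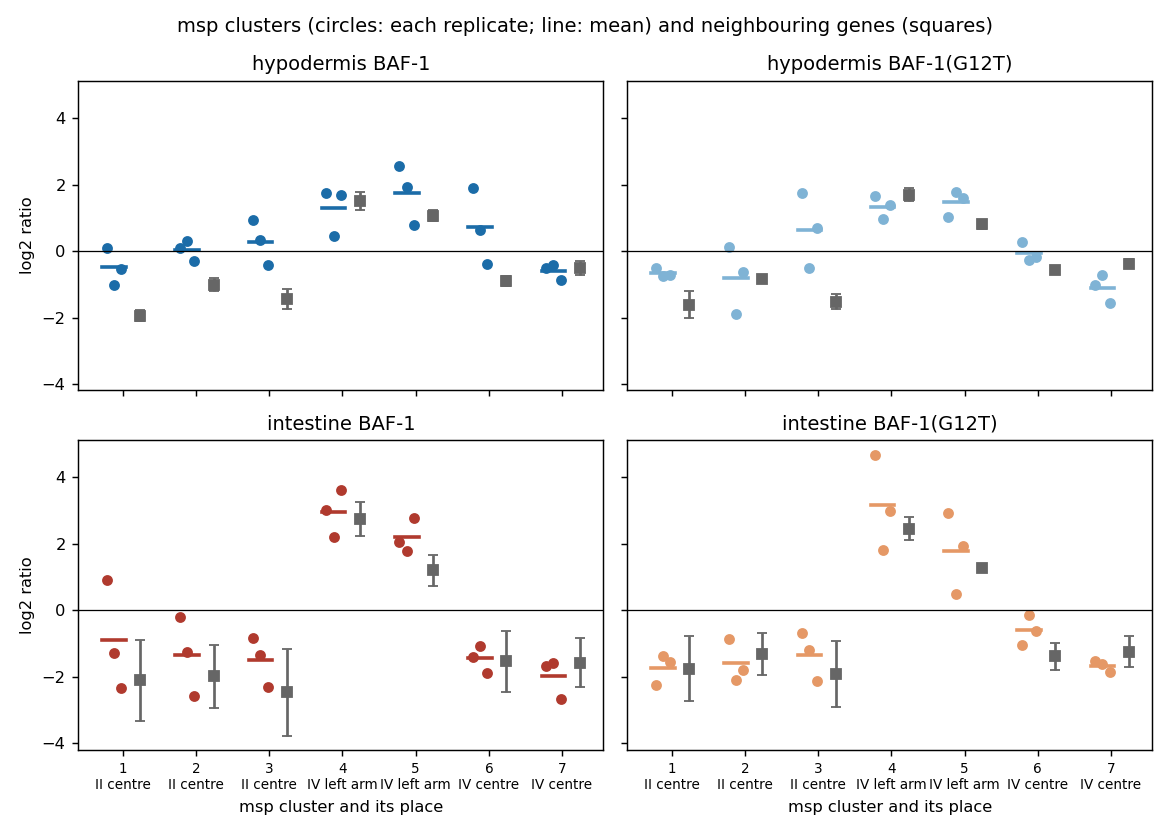
Mean log2 ratio of the tested members of each msp cluster in replicates 1 to 3 (circles, left to right, with a line at their mean) beside the median of the protein-coding genes within 100 kb (squares, mean ± SD of 3 replicates), 1 panel for each group. Clusters 4 and 5 stand above 0 in every panel together with their neighbours, and clusters 1 to 3 stand nearer 0 than their neighbours in hypodermis BAF-1.

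The centres of II and IV gave the opposite picture. Of the protein-coding genes near the clusters there, 6 of 343, 11 of 366, 0 of 366 and 2 of 363 were bound in hypodermis BAF-1, hypodermis BAF-1(G12T), intestine BAF-1 and intestine BAF-1(G12T). The centre members had ratios nearer 0 than these neighbours. Since 0 is in some columns also the value of a gene without reads, few reads at the members and weaker depletion cannot be told apart there. Their median minus the neighbours' median was 0.98 ± 0.28 in hypodermis BAF-1, 0.46 ± 0.44 in hypodermis BAF-1(G12T), 0.46 ± 0.10 in intestine BAF-1 and 0.28 ± 0.48 in intestine BAF-1(G12T) (SD, n = 3), above 0 in 11 of 12 columns. Cluster 7 went the other way in every group, with members below their neighbours by medians of -0.09 ± 0.06, -0.72 ± 0.36, -0.40 ± 0.47 and -0.42 ± 0.30. Cluster 6 did so in intestine BAF-1 (-0.26 ± 0.72) and cluster 2 in intestine BAF-1(G12T) (-0.23 ± 0.76). The part of shared sequence ends, which msp genes have more of than other genes, was not tested, and no p is given because the members were chosen as a family.

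Cluster 1 had 4 of 6 members tested in hypodermis BAF-1 and all 6 in the other groups, and none was bound. Its highest member was msp-40, with ratios of 0.26, -0.37 and -0.43 for BAF-1 and -0.75, -0.51 and 0.42 for BAF-1(G12T) in hypodermis, and 1.32, 0.74 and 0.11 and 0.74, -0.95 and 0.34 in intestine. These values lay on both sides of 0 except in intestine BAF-1, where all 3 were above it, and no mean was called. The lowest was msp-31, with -0.25, -1.23 and -1.37 and -0.65, -1.58 and -0.57 in hypodermis, and 0.09, -3.70 and -5.28 and -1.41, -2.59 and -3.55 in intestine. Its intestine means were -2.96 ± 2.76 and -2.51 ± 1.07 (SD, n = 3; adjusted p = 0.0203 and 0.0142, limma), and 11 of its 12 values were below 0. The gene body of msp-31 overlaps that of aagr-2, a protein-coding gene, so its window measures both.

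In cluster 2, msp-74 was the only centre member bound by BAF-1. Its ratios in hypodermis were 2.18, 1.22 and 1.83 for BAF-1, all above those for BAF-1(G12T), which were 0.07, -0.32 and 0.00. In intestine they were 1.32, 0.50 and 0.86 for BAF-1 and 1.62, -1.32 and 0.51 for BAF-1(G12T), and neither group was bound. The hypodermis BAF-1 mean was 1.74 ± 0.48 (SD, n = 3; adjusted p = 0.0223, limma), and the call was lost without replicate 2 (adjusted p = 0.0571) or replicate 3 (0.102). The window of msp-74 overlaps those of srsy-1 and F09C12.8. The lowest member of the cluster, msp-50, was the only msp gene with a call below 0 in every group. Its ratios were -1.46, -1.32 and -2.70 and -1.24, -4.25 and -1.39 in hypodermis, and -1.91, -2.59 and -4.57 and -2.20, -2.89 and -3.02 in intestine, for BAF-1 first and BAF-1(G12T) second. The adjusted p ranged from 0.00765 to 0.0206 (limma).

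Cluster 3 is the most compact on chromosome II. The neighbours msp-63 and msp-142 point away from each other with 478 bp between them, so their windows overlap and the 2 values are not independent. The highest member was msp-142, with 0.29, 1.26 and -0.43 for BAF-1 and 2.25, 0.58 and 2.25 for BAF-1(G12T) in hypodermis. In intestine its ratios were -0.83, 0.66 and -1.27 and -0.51, -0.62 and -1.66. It was bound in hypodermis BAF-1(G12T) alone (adjusted p = 0.0169, limma), a call lost without replicate 1 (0.0580) or replicate 3 (0.0877). The lowest was msp-64, with 0.97, 0.10 and -0.93 and 1.05, -1.51 and -0.35 in hypodermis, and -1.15, -3.43 and -3.21 and -0.29, -2.50 and -2.76 in intestine. All 6 intestine values of msp-64 were below 0.

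Cluster 6, the longest at 206.0 kb, had no bound member in any group. Its highest tested mean was that of msp-10, with 4.32, 0.00 and 1.42 and 0.83, 1.08 and -0.22 in hypodermis, and -1.32, 1.17 and -0.82 and -1.58, 1.25 and 0.56 in intestine. Replicates of msp-10 were up to 4.32 apart on the log2 scale within 1 group, and no mean was called (smallest adjusted p = 0.0525, hypodermis BAF-1, limma). The lowest mean over the groups where a member was tested was that of msp-56, which rests on intestine BAF-1(G12T) alone, at -2.58, -0.73 and -0.44. In that same group msp-79 was lower, at a mean of -1.39 against -1.25. Another member, msp-78, is described with the differences between tissues. The 2 members of cluster 7 were not bound in any group either. The msp-36 means were 0.17 ± 0.59 and -1.36 ± 0.24 in hypodermis and -1.72 ± 0.55 and -0.87 ± 0.41 in intestine, and the msp-38 means were -1.38 ± 1.04 and -0.85 ± 0.89 in hypodermis and -2.23 ± 0.91 and -2.45 ± 0.23 in intestine (SD, n = 3).

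Whether the G12T change alters the association was asked in each tissue by comparing 3 columns with 3. No msp gene differed. In hypodermis 0 of 25 members passed, where 0% of all 30279 genes were called in either direction, and the differences between G12T and wild type ranged from -2.09 to 1.42 over the members, with a median of -0.22. At an unadjusted p under 0.05 in limma, 585 genes and 2 members passed, both members lower in G12T, where 0.393% of all genes were lower and 1.54% higher at that limit. They were msp-74, at -1.73 ± 0.61 (SE, unadjusted p = 0.0162, limma), and msp-36, at -1.43 ± 0.62. In the other direction the smallest p was that of msp-142, at 1.42 ± 0.73. Differences were taken after centring on the genes tested in both groups, so they depart slightly from the differences of the means above.

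In intestine 0 of 28 members and 0% of all 32982 genes were called in either direction. The differences ranged from -1.69 to 2.20 with a median of -0.31, while 994 genes and 1 member had an unadjusted p under 0.05 in limma. The member was msp-78, higher in G12T, where 0.546% of all genes were higher and 2.47% lower at that limit. Its intestine ratios were -3.06, -3.30 and -1.66 for BAF-1 and 0.25, -0.43 and -0.58 for BAF-1(G12T), which do not overlap, and the difference was 2.20 ± 0.79 (SE, unadjusted p = 0.0171, adjusted p = 1, limma). In the other direction msp-49 had the smallest p, at -1.64 ± 0.99. The samples paired by number within a tissue, and with the replicate number as a block no call changed. The left arm members, which had the highest ratios, gave G12T differences from -2.09 to 1.05 in hypodermis and from -1.54 to 0.67 in intestine, and none was called.

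**Figure D4:**
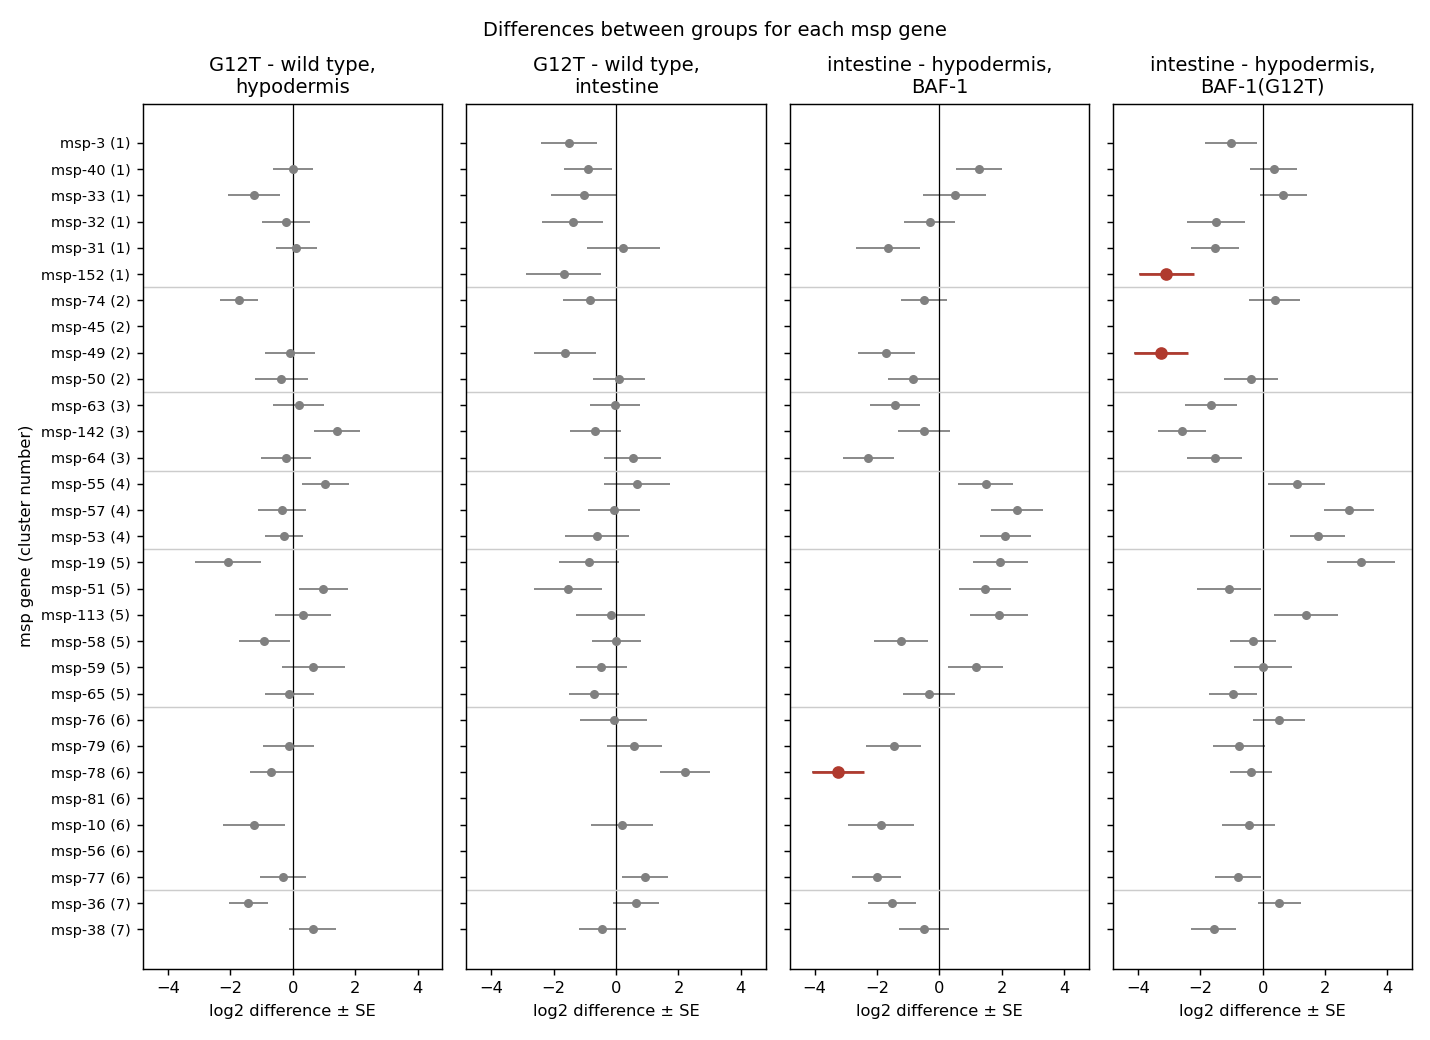
Difference in log2 ratio (± SE from limma) for each msp gene between G12T and wild type in hypodermis and intestine (left 2 panels) and between intestine and hypodermis for each protein (right 2 panels). Genes that were not tested have no point, and red points had an adjusted p under 0.05. The 3 red points, msp-78, msp-152 and msp-49, all lie below -3 in the tissue comparisons, and none appears in the G12T comparisons.

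Few members were called between tissues, all of them in chromosome centres, and each call was lost without some single columns. For BAF-1, 0 of 25 members were called higher in intestine than in hypodermis, against 5.56% of all genes, and 1 was called lower, against 2.62%. At an unadjusted p under 0.05 in limma, 3 members were higher, against 16.2% of all genes, and 3 were lower, against 10.4%. The member called was msp-78 of cluster 6, with hypodermis ratios of 1.15, 1.87 and -0.18 above all 3 of its intestine ratios given above. The difference was -3.26 ± 0.84 (SE, adjusted p = 0.0289, limma). For BAF-1(G12T) the ratios of msp-78 were 0.36, 0.00 and 0.11 in hypodermis, and its difference of -0.38 ± 0.69 was not called. The largest change in the opposite direction for BAF-1 was at msp-57, at 2.49 ± 0.83 (adjusted p = 0.0692). The call at msp-78 was lost in turn without replicate 1 or 2 of hypodermis BAF-1 and replicate 2 or 3 of intestine BAF-1 (adjusted p from 0.0538 to 0.119), and 4 members were called without replicate 1 of intestine BAF-1.

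For BAF-1(G12T), 0 of 28 members were called higher in intestine, against 5.03% of all genes, and 2 were called lower, against 2.29%. At an unadjusted p under 0.05 in limma, 2 members were higher, against 14.5%, and 3 were lower, against 10.4%. The first of those called was msp-49 of cluster 2. Its hypodermis ratios were 1.57, -1.11 and -0.51 and its intestine ratios -3.81, -2.37 and -3.76, which do not overlap, and the difference was -3.26 ± 0.85 (SE, adjusted p = 0.0370, limma). For BAF-1, msp-49 had -0.42, 1.01 and -0.07 in hypodermis and 0.00, -1.62 and -4.03 in intestine, a difference of -1.70 ± 0.90 that was not called. The second was msp-152 of cluster 1, with 1.25, 0.74 and -0.58 in hypodermis and -4.32, -1.64 and -2.02 in intestine and a difference of -3.09 ± 0.88 (adjusted p = 0.0496). It was not tested for BAF-1 in hypodermis, where its values were 0.00, 0.26 and -0.17, and its BAF-1 intestine values were 1.58, -1.58 and -3.57. Both calls were kept without replicate 2 of intestine BAF-1(G12T) (adjusted p = 0.0238 and 0.0290), and both were lost without any other single column of the 2 groups, the adjusted p then running from 0.0668 to 0.187. They were also lost with no filter (0.214 for msp-49 and 0.206 for msp-152) and with the replicate number as a block (0.0713 and 0.0853). In the opposite direction msp-57 again had the smallest p, at 2.77 ± 0.80 (adjusted p = 0.0520).

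No left arm member was called between tissues. Their differences for BAF-1 ranged from -1.23 (msp-58) to 2.49 (msp-57), and those for BAF-1(G12T) from -1.08 (msp-51) to 3.14 (msp-19). The median difference over all genes tested was 0.23 and 0.13 for the 2 proteins, and over the members it was -0.49 and -0.42. The difference of the G12T effect between tissues was called at 0 of 25 members and 0% of all 29716 genes in either direction. At an unadjusted p under 0.05 in limma, 1091 genes passed, 0.579% of all genes higher and 3.09% lower. Among them were 2 members, both higher, msp-78 at 2.82 ± 1.02 (SE) and msp-36 at 2.0 ± 0.90. In the other direction msp-142 had the smallest p, at -2.16 ± 1.07.

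Other genes of sperm and of the response to MSP were counted from lists. The sperm families (msd, ssp, ssq, sss and nspd genes, most of them small and in several copies) were bound at 11 of 28 and 10 of 30 tested in hypodermis and at 8 of 30 and 9 of 30 in intestine, for BAF-1 first and BAF-1(G12T) second. The shares of all genes bound were 20.5%, 24.6%, 25.9% and 21.9%. Calls below 0 in these families numbered 1, 2, 8 and 4. Their highest ratio was that of ssq-4 in 3 groups, at 3.88 in hypodermis BAF-1(G12T), 3.74 in intestine BAF-1 and 4.71 in intestine BAF-1(G12T), and that of ssp-19, at 3.87, in hypodermis BAF-1. The lowest were nspd-7 (-1.80) and nspd-5 (-1.59) in hypodermis and nspd-1 (-3.10 and -3.09) in intestine. Of the sperm function genes, which include the spe genes named for defective sperm, 5 of 35, 6 of 36, 2 of 36 and 3 of 36 were bound in the same order of groups, and 6, 6, 12 and 8 were called below 0, where the shares of all genes were 24%, 26.3%, 22.4% and 19.2%. The highest of these was spe-8, a kinase needed to activate sperm of hermaphrodites, in hypodermis BAF-1 (3.20), intestine BAF-1 (2.66) and intestine BAF-1(G12T) (2.80), and spe-19 (2.69) in hypodermis BAF-1(G12T). The lowest were try-5, a seminal protease (-3.15), spe-36 (-2.89 and -3.03) and spe-49 (-3.38).

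Among genes that act in the response of oocytes and sheath to MSP, 1 of 8, 2 of 8, 1 of 8 and 1 of 8 were bound, and 2, 3, 3 and 2 were called below 0. The innexin inx-22 was the highest in each group, between 2.21 and 3.57, and the lowest were oma-2 (-1.87) and ceh-18 (-1.68) in hypodermis and gsa-1 (-2.88 and -3.01) in intestine. Of 4 genes listed as sperm regulators, fog-1 and fog-3, elt-1 and spe-44, 2 were bound in each hypodermis group, 0 in intestine BAF-1 and 1 in intestine BAF-1(G12T). The highest was fog-1 in hypodermis (2.37 and 2.02) and fog-3 in intestine (1.51 and 1.65), and the lowest elt-1 in hypodermis (-0.75 and -0.64) and in intestine BAF-1 (0.02), and fog-1 in intestine BAF-1(G12T) (-0.06). No gene of these 4 lists differed between G12T and wild type in either tissue at an adjusted p under 0.05 in limma, where 0% of all genes did. Between tissues, genes lower in intestine for BAF-1 were 1 of 28 in the sperm families (msd-4) and 3 of 35 of sperm function. The share of all genes was 2.62%, and the lowest of those called was the sperm phosphatase gsp-4 at -4.09. For BAF-1(G12T), 1 of 36 sperm function genes (spe-49) was lower, against 2.29% of all genes. These lists were chosen with earlier results of the data known, so their counts are a description.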

How the data were processed

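DamID libraries of 8 groups with 3 replicates each were sequenced, and the authors deposited log2 ratios of each Dam fusion over its GFP::Dam control, for genes with 500 bp at each end and for 2 kb bins. The files' columns are centred on a mean of 0 over all rows. The deposited p-value columns hold the authors' own tests, and only the presence of a value was used, as the mark of a tested gene. The submitters' processing notes name DESeq2 and ce11. Read totals per library, which the study lists, were not used in the fits, and depth per gene is not in the ratios.

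Columns were centred on the median of the genes tested in every table of a comparison. Means and differences were fitted over all tested genes with limma 3.58.1 (R 4.3.3; robust moderation, Benjamini-Hochberg adjustment) and described with Python 3.11.15, pandas 2.3.3 and matplotlib 3.10.9. The fits were tested on simulated data. Neighbours were protein-coding genes within 100 kb of a cluster. Named genes were the highest and lowest member of each cluster, members called in a difference, and those with the smallest p in each direction. Members, lists and tests were chosen with earlier results of these data known. Replicate numbers paired samples between proteins within a tissue, since deviations from group means correlated with r of 0.45, 0.32 and 0.28 in hypodermis and 0.30, 0.24 and 0.43 in intestine. Alternatives were the deposited centring, other filters, no robust moderation, 2 kb bins, a replicate block, other joining distances and each column left out.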

Additional observations from a re-analysis of the deposited data

How the results depend on the processing

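No called value changed sign. The member median in hypodermis BAF-1(G12T), 0.03, was near 0 and became -0.01 with 1 member for each overlapping window and -0.28 without replicate 1. Without robust moderation all 43 values kept their side of the threshold. With no filter on tested genes, 0 members were bound in hypodermis BAF-1(G12T) (423 of all genes) and 2 in intestine BAF-1(G12T) (6446 of all genes), whose median became -0.076 (and -0.32 in 2 kb bins). Between tissues, the BAF-1 comparison had 3 members called with the deposited centring. The BAF-1(G12T) comparison had 0 with no filter, 1 when genes had to be off the most frequent value in 2 of 3 columns, and 0 with the replicate number as a block. Between tissues that number did not pair samples (r from -0.10 to 0.08). The block changed no other call. The deposited centring shifted the median difference of all genes by -0.84 for BAF-1 between tissues. Joining within 50 kb gave 11 clusters and within 500 kb gave 4. The causes were not tested. With 1 column left out, bound members ranged from 3 to 5 in hypodermis BAF-1, from 0 to 8 in intestine BAF-1 and from 3 to 8 in intestine BAF-1(G12T). Members called between tissues ranged from 0 to 4 for BAF-1 and from 0 to 3 for BAF-1(G12T). The ratios carry no counts, and a gene without reads takes a value that differs between columns. As deposited, it ran from -1.62 in replicate 3 of hypodermis BAF-1 to 2.46 in replicate 2 of intestine BAF-1. A ratio near that value of its column, whether high, low or near 0, cannot be told from few reads at that gene.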

Other observations

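Across the 12 columns, the gene whose ratios followed the median of the 25 msp genes tested in every group most closely, of 29716 genes, was F52H2.1 on chromosome X (Pearson r = 0.964). It was followed by ZK638.1 on III (0.942), K11D12.6 on V (0.935), spcs-1, a signal peptidase subunit, on I (0.935) and Y56A3A.7 on III (0.934). None of these 5 genes lies on chromosome II or IV. The columns share libraries and centring, so these values are a description of likeness only.

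In 2 kb bins, 9 of 30 members with a tested bin lay in a bound bin in hypodermis BAF-1, against 19.7% of all bins, and 8 of 29 in hypodermis BAF-1(G12T), against 24.4%. In intestine it was 8 of 31 for BAF-1, against 26.3% (7 of 31 without replicate 2), and 7 of 29 for BAF-1(G12T), against 21.2%. The bin of msp-45, a member not tested as a gene in that group, was among the bound bins of hypodermis BAF-1.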
